A study of Mus musculus with 8 samples.

Results

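The transcripts described here encode the secreted antagonists that block Wnt signalling at its LRP co-receptors, and their cell surface partners. The 7 genes are the Dickkopf genes Dkk1, Dkk2 and Dkk3, the sclerostin gene Sost and its relative Sostdc1, and the Kremen genes Kremen1 and Kremen2. They were taken by symbol from the 49315 gene IDs of the count table, and each matched 1 ID. Bulk RNA was sequenced from calvaria, the bones that form the roof of the skull, of 4 wild-type and 4 Girk3 knockout C57BL6 mice, all female and aged 2 to 3 days. Girk3, encoded by Kcnj9, is a subunit of potassium channels that G proteins open, and the series title describes its deletion as global. The label of the knockout names no allele, and whether the wild-type mice were littermates is not given in the sources used here. The p-values set the difference between the genotypes against the spread between these 8 samples.

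Wnt ligands act through a Frizzled receptor and the co-receptors LRP5 or LRP6, which together stabilise beta-catenin. DKK1, DKK2 and sclerostin bind the outer part of LRP5 and LRP6 and keep Wnt ligands from using them; Kremen proteins bind DKK and draw the complex into the cell, and LRP4 holds sclerostin at the cell surface. In bone, Wnt signalling favours osteoblasts. Sclerostin comes mainly from osteocytes, the cells buried in bone matrix, and DKK1 from osteoblasts and osteocytes. The comparison asks how transcripts of these antagonists differ in the bone of mice without Girk3.

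Dkk1 was the one gene of the 7 that changed by the test across all genes, and it rose in knockout. The call ended without wild-type replicate 2 (edgeR adjusted p = 0.0509) or without the 3 libraries poor in muscle RNA (0.254). DESeq2 called 3 of the genes, Dkk1, Sost and Dkk2, but it also called more genes in all, 952 of 17743 against 234 in the main analysis. Sost, Dkk2 and Sostdc1 also had higher means in knockout, without passing, while Dkk3 and Kremen1 differed by less than the spread between libraries and Kremen2 was at the limit of detection. Of the 7 genes, 6 passed the filter on low counts. Of these, 1 was higher in knockout at an adjusted p under 0.05 (edgeR's quasi-likelihood test with Benjamini-Hochberg adjustment over 17743 genes), where 1.32% of all tested genes were called in either direction and 0.445% were called higher. Before adjustment, 4 of the 6 had a p under 0.05, against 17.4% of all tested genes. The log2 change was above 0 in 5 of the 6, against 49.9% of all tested genes. The median log2 change of the 6 genes was 0.37, and that of all tested genes was 0.00.

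**Figure D1:**
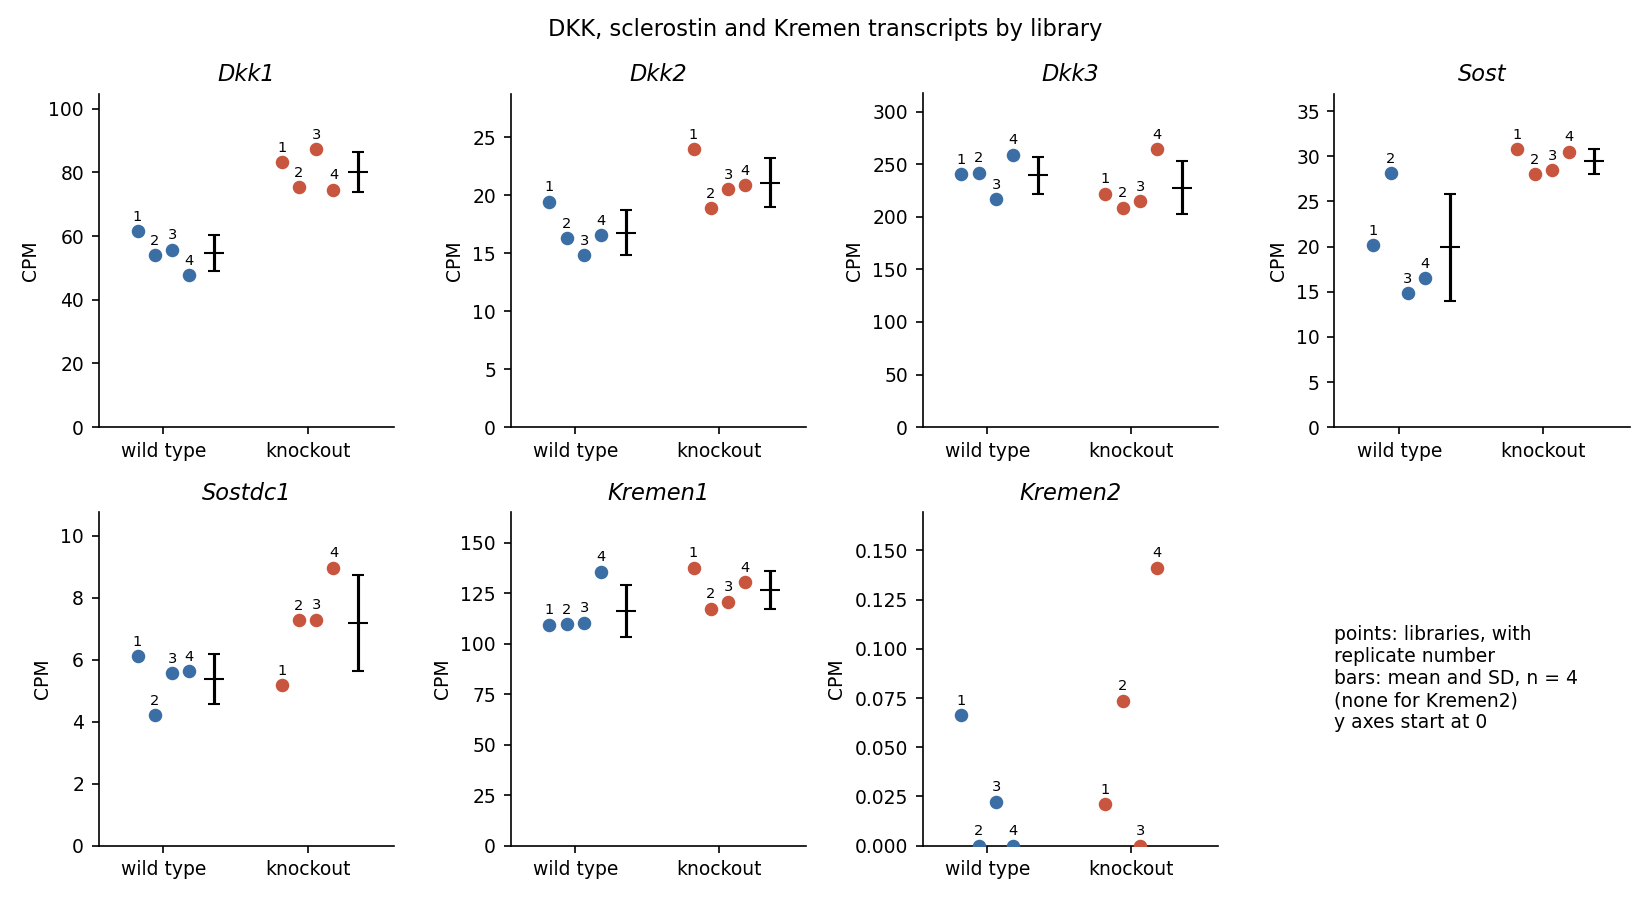
Counts of the 7 genes per 1000000 counts of the library (CPM) in each library, wild type in blue and knockout in red, with the replicate number beside each point and the mean and SD of 4 libraries as a black bar (none for Kremen2). The 4 knockout libraries of Dkk1 lie between 74.5 and 87.3 CPM, all above the wild-type libraries, whereas the groups overlap for the other genes.

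Stretches of DNA before the start of Dkk1, Dkk2 and Sost are shown first, as these are the genes of smallest p among the 7. RefSeq windows (build GRCm38.p6) were found for 4 of the 7 genes, Kremen2 being the fourth; Dkk3, Sostdc1 and Kremen1 had none. The windows are the 250 bases before the RefSeq start. For Dkk2 and Sost this is also the GENCODE start. For Dkk1 the RefSeq start (30549496) lies inside the gene as GENCODE places it, which begins at 30549665. Of the 250 bases, 169 are therefore within the GENCODE gene. Sequences are printed up to the GENCODE start, 5′ to 3′ on the strand of the gene, at chr19:30549666-30549746 (minus strand, 81 bases) for Dkk1, chr3:132085042-132085291 (plus strand) for Dkk2 and chr11:101967016-101967265 (minus strand) for Sost. Capitals mark TATAAA, the core of the TATA box. Also searched was CTTTGAA, a core of the sites bound by the TCF and LEF factors that carry the Wnt signal to DNA.
Dkk1: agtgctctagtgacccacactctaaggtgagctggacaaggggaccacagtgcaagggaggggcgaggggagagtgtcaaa
Dkk2: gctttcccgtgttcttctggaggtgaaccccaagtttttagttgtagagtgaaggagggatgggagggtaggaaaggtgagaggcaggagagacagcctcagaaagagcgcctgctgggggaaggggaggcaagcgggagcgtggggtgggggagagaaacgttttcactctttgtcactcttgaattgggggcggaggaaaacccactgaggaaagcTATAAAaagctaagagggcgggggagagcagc
Sost: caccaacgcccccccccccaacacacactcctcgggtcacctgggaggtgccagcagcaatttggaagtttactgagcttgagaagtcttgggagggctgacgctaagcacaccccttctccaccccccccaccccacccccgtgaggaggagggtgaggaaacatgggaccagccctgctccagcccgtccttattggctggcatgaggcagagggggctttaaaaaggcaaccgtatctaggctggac

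The whole Dkk1 window held TATAAA from 54 to 49 bases and CTTTGAA from 117 to 111 bases before the RefSeq start. Both lie in the part that is within the GENCODE gene and that is not printed. The Dkk2 window held TATAAA from 32 to 27 bases before the start, which both annotations share. Searched on both strands, TATAAA occurred in 12.4% of 32817 RefSeq windows of the same length, and CTTTGAA or CTTTGAT in 7.48%. Neither TGANTCA, the motif of AP-1 factors, nor TGACGTCA, the cyclic AMP response element, occurred in the windows of Dkk1, Dkk2, Sost or Kremen2; they occurred in 6.75% and 1.55% of all windows. CANNTG, the E-box, occurred in 66.2% of all windows, once in that of Sost and not in those of Dkk1 or Dkk2. A match of letters describes the sequence and does not show that a factor binds there.

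Dkk1 (ENSMUSG00000024868, chromosome 19 from 30545863 to 30549665, minus strand, GRCm38/mm10), the Dickkopf protein best known as an inhibitor of bone formation, stood at 61.6, 54.0, 55.8 and 47.6 CPM in wild-type replicates 1 to 4. The knockout libraries held 83.3, 75.3, 87.3 and 74.5 CPM. The lowest knockout library was therefore above the highest wild-type library. Such a gap was seen in 10.6% of all tested genes, and with knockout higher in 4.63%. Wild type averaged 54.7 ± 5.74 CPM and knockout 80.1 ± 6.24 CPM (SD, n = 4 each). The log2 change was 0.55 ± 0.0868 (SE), or 1.46-fold with a 95% interval of 1.28 to 1.67 (edgeR adjusted p = 0.0124, the gene ranking 51 by p). Counts behind these values ran from 2246 to 4242 per library, so counting error is small beside the spread between libraries.

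Dkk2 (ENSMUSG00000028031, chromosome 3 from 132085292 to 132180304, plus strand), which like DKK1 binds LRP5 and LRP6 but can inhibit or mildly activate the pathway depending on Kremen, was at a lower level. Wild-type replicates 1 to 4 held 19.5, 16.3, 14.8 and 16.5 CPM, and knockout replicates held 24.0, 18.9, 20.5 and 20.9 CPM. Wild-type replicate 1 lay above knockout replicate 2, so the groups overlapped in that pair. The log2 change of 0.33 ± 0.1 (SE) did not pass (edgeR adjusted p = 0.13), and the 95% interval, not adjusted for the number of genes, ran from 1.08-fold to 1.46-fold. In DESeq2 the change passed (adjusted p = 0.0463).

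Dkk3 (ENSMUSG00000030772, chromosome 7 from 112116017 to 112159057, minus strand), the divergent member of the family, which is not a typical ligand of LRP5 or LRP6, was the most abundant of the 7. It held 240.2, 241.9, 216.6 and 259.1 CPM in wild-type replicates 1 to 4, and 222.0, 208.7, 214.8 and 264.3 CPM in knockout replicates. The highest and the lowest library were both knockout libraries, replicates 4 and 2. The log2 change was -0.07 ± 0.088 (SE, edgeR adjusted p = 0.708), with a 95% interval from 0.832-fold to 1.08-fold. That interval lies below the interval of Dkk1, although the difference between the 2 genes was not itself tested.

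Sost (ENSMUSG00000001494, chromosome 11 from 101962458 to 101967015, minus strand) encodes sclerostin, the target of an antibody given to build bone in osteoporosis. Wild-type replicates 1 to 4 held 20.1, 28.2, 14.9 and 16.5 CPM. Knockout replicates held 30.8, 28.0, 28.5 and 30.5 CPM. The knockout libraries lay close together, with a coefficient of variation of 4.76%, while the wild-type libraries varied by 29.7%. Wild-type replicate 2 reached the knockout range and was above knockout replicate 2, and the other wild-type libraries were below every knockout library. The means were 19.9 ± 5.92 and 29.5 ± 1.4 CPM (SD, n = 4 each). The log2 change of 0.57 ± 0.173 (SE) was as large as that of Dkk1 but did not pass (edgeR adjusted p = 0.148). It passed under 3 of 19 other settings. Without wild-type replicate 2 it was 0.78 ± 0.105 (adjusted p = 0.0114), with the mean log2 CPM of skeletal muscle markers as a covariate 0.61 (adjusted p = 0.04998), and in DESeq2 0.57 (adjusted p = 0.0161).

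Sostdc1 (ENSMUSG00000036169, chromosome 12 from 36314139 to 36318452, plus strand), whose product is related to sclerostin and binds both LRP co-receptors and BMP ligands, was at 6.12, 4.21, 5.57 and 5.63 CPM in wild-type replicates 1 to 4. Knockout replicates held 5.17, 7.27, 7.3 and 8.98 CPM. Knockout replicate 1 lay within the wild-type range and the other 3 lay above it. The log2 change was 0.41 ± 0.17 (SE, edgeR adjusted p = 0.241; 95% interval 1.03-fold to 1.72-fold). It was the gene with the widest spread in knockout among the 6 tested, with a coefficient of variation of 21.7%.

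Kremen1 (ENSMUSG00000020393, chromosome 11 from 5191552 to 5261558, minus strand), a transmembrane receptor for DKK1 and DKK2, was at 109.6, 109.8, 110.4 and 135.7 CPM in wild-type replicates 1 to 4. Knockout replicates held 137.8, 117.4, 120.9 and 130.6 CPM. Wild-type replicate 4 stood apart from the other wild-type libraries and fell inside the knockout range. The log2 change was 0.12 ± 0.0868 (SE, edgeR adjusted p = 0.496), with a 95% interval from 0.955-fold to 1.24-fold.

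Kremen2 (ENSMUSG00000040680, chromosome 17 from 23741197 to 23745833, minus strand), the second Kremen receptor gene, held 3, 0, 1 and 0 counts in wild-type replicates 1 to 4 and 1, 4, 0 and 5 counts in knockout replicates. These are 0.0221 ± 0.0312 and 0.059 ± 0.063 CPM by library total (SD, n = 4 each; exact permutation test, two-sided, p = 0.371, with 0.0286 the smallest p the design allows). A count of 0 allows up to 3 counts, which is at most 0.0848 CPM in these libraries, so a difference was not detectable at this depth. Of its exon bases, 9.42% overlap the gene 9530082P21Rik on the opposite strand, and the strand setting of the counting is not given in the sources used here. No exon base of the other 6 genes overlaps another annotated gene. No gene of the 7 lies on chromosome 1, where Kcnj9 is.

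Levels of different genes were compared as CPM per kilobase of exon. In all 8 libraries the order was Dkk3, Dkk1, Kremen1, Sost, Dkk2, Sostdc1 and Kremen2, and within each genotype no neighbours in that order overlapped. In wild type the levels were 71.3 ± 5.2 for Dkk3, 22.6 ± 2.37 for Dkk1, 15.1 ± 1.67 for Kremen1, 9.64 ± 2.87 for Sost, 4.53 ± 0.522 for Dkk2 and 3.02 ± 0.461 for Sostdc1 (CPM per kb, SD, n = 4). Kremen2 was at 0.0104 ± 0.0147 CPM per kb. Some neighbours came close. In knockout Kremen1, from 15.2 to 17.9 CPM per kb, was only just above Sost, from 13.6 to 14.9. In wild type the lowest Kremen1 library was at 14.2 and the highest Sost library at 13.6. In knockout the lowest Dkk2 library was at 5.1 and the highest Sostdc1 library at 5.04.

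**Figure D2:**
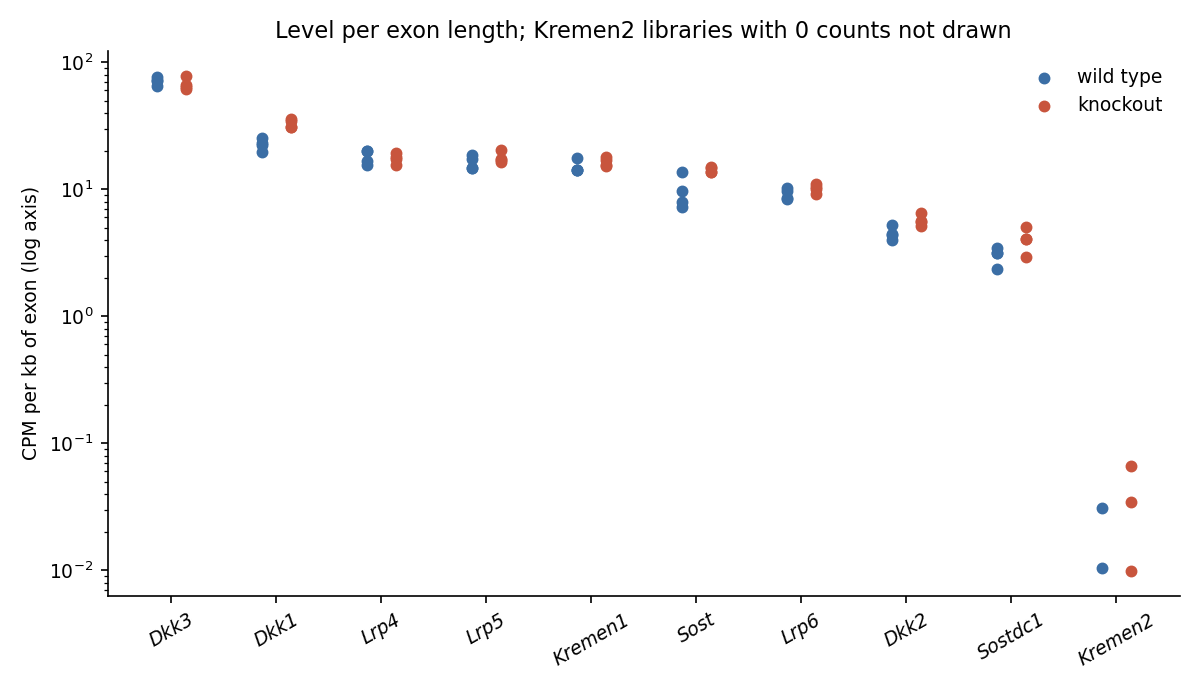
Level of the 7 genes and of the LRP co-receptor genes in CPM per kb of exon on a log axis, 1 point per library, wild type in blue and knockout in red; Kremen2 libraries with 0 counts are not drawn. Dkk3 is highest, from 62.1 to 78.7 CPM per kb, and Kremen2 lies below 0.1 CPM per kb in every library.

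The LRP co-receptor genes, whose products these antagonists bind, and Mesd did not pass the test. Lrp5 and Lrp6, the Wnt co-receptors, had log2 changes of 0.13 ± 0.0964 and 0.15 ± 0.0868 (SE, edgeR adjusted p = 0.521 and 0.413). Lrp4, the sclerostin anchor, was at -0.04 ± 0.0974 (adjusted p = 0.87), and Mesd, the chaperone that LRP5 and LRP6 need to reach the surface, at -0.11 ± 0.0623 (adjusted p = 0.392). For all 4 genes the groups overlapped, and at the widest their 95% intervals ran from 0.839-fold to 1.26-fold. None of the 4 had an unadjusted p under 0.05, against 17.4% of all tested genes. DESeq2, which called 952 of the 17743 genes, called 0 of the 4, and so did limma-voom, which called 167. For 4 genes, 0 called is near the 1.32% of all tested genes that edgeR called. Per kb, wild-type calvaria held 18.1 CPM of Lrp4, 16.3 of Lrp5 and 9.21 of Lrp6, so that Dkk1 was above the mean of each and Sost was close to Lrp6.

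**Figure D3:**
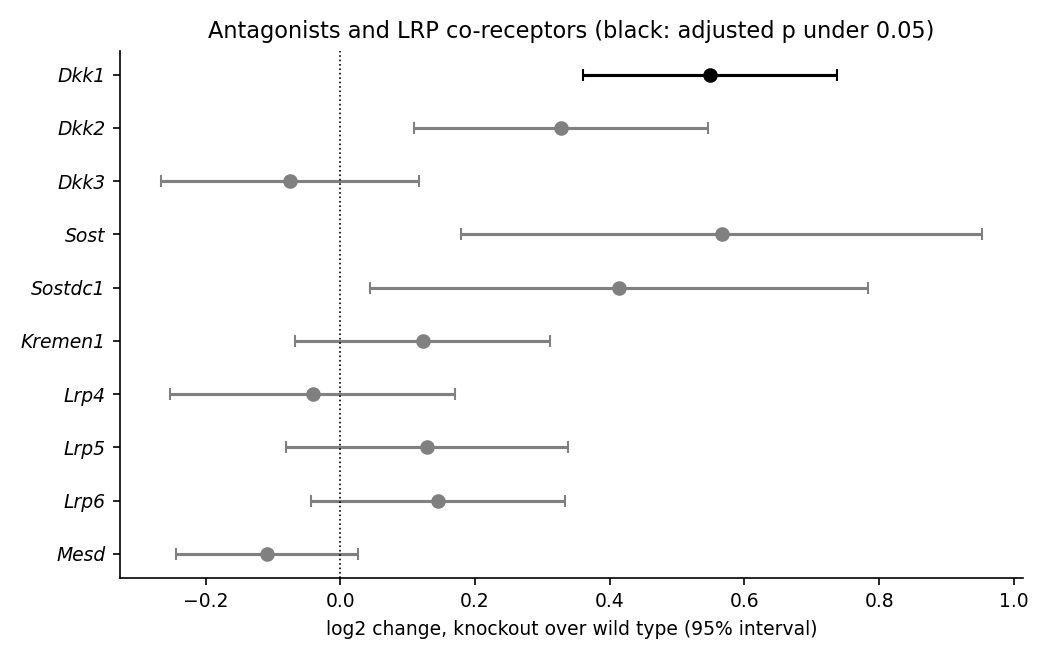
Log2 change, knockout over wild type, with its 95% interval for the 6 tested antagonist and Kremen genes, the co-receptor genes Lrp4, Lrp5 and Lrp6 and their chaperone gene Mesd; black marks an adjusted p under 0.05. Dkk1 at 0.55 is black, and the intervals of Dkk3, Kremen1, Lrp4, Lrp5, Lrp6 and Mesd include 0.

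The balance of antagonist to receptor transcripts was also described within libraries, with no test, since 8 such ratios were looked at after the values were known. The ratio of Dkk1 to Kremen1 per kb was 1.79, 1.57, 1.61 and 1.12 in wild-type replicates 1 to 4 and 1.92, 2.04, 2.3 and 1.81 in knockout replicates. All knockout ratios were above the wild-type ratios, although wild-type replicate 1 and knockout replicate 4 were nearly equal. The ratio of Dkk1 to Lrp6 ran from 2.01 to 3.05 in wild type and from 2.81 to 3.57 in knockout, and that of Dkk1 to Lrp5 from 1.06 to 1.74 and from 1.7 to 2.11, both with overlap. The ratio of Dkk3 to Dkk1, with Dkk1 as the denominator, ran from 2.81 to 3.93 in wild type and from 1.78 to 2.56 in knockout. These ranges did not overlap. As Dkk3 itself differed little (log2 change -0.07, edgeR adjusted p = 0.708), this ratio restates the rise of Dkk1. How often other pairs of genes have ratios without overlap was not computed. The ratio of Dkk1 to Sost, averaged 2.47 ± 0.643 for wild type and 2.32 ± 0.22 for knockout (SD, n = 4 each) and overlapped. The ratios of Sost to Lrp4, Lrp5 and Lrp6 overlapped as well, from 0.362 to 0.871, 0.416 to 0.934 and 0.701 to 1.6 in wild type and from 0.761 to 0.953, 0.737 to 0.85 and 1.23 to 1.62 in knockout.

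The wider Wnt pathway held genes that changed in both directions. The counts of each list below stand beside 0.445% of all tested genes called higher and 0.874% called lower. Of 12 tested Wnt feedback and target genes, 1 rose and none fell, and their median log2 change was 0.19. The gene that rose was Axin2, a scaffold of the beta-catenin destruction complex that Wnt signalling induces. Axin2 stood at 8.1 to 9.5 CPM in wild type and 11.2 to 17.2 CPM in knockout, a log2 change of 0.66 ± 0.121 (SE, edgeR adjusted p = 0.0231). Nkd1, another feedback inhibitor, was at 0.34 ± 0.133 (adjusted p = 0.221). Of 8 tested genes of the R-spondin module, which controls how long Frizzled receptors stay at the surface, none passed in edgeR. In DESeq2, which called 952 of the 17743 genes, 1 passed, and in limma-voom 0. An unadjusted p under 0.05 was reached by 2 of the 8, against 17.4% of all tested genes. These 2 were the ubiquitin ligase genes Rnf43 (log2 change 0.87 ± 0.229, adjusted p = 0.0915) and Znrf3 (0.24 ± 0.102, adjusted p = 0.254).

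Among 13 tested Wnt ligand genes 1 rose and none fell. Wnt10b, a ligand that favours osteoblasts over fat cells, was at 33.0 to 38.0 CPM in wild type and 44.6 to 64.1 CPM in knockout (log2 change 0.56 ± 0.103 SE, edgeR adjusted p = 0.0231). Wnt9a was at -0.23 ± 0.107 (adjusted p = 0.283). None of the 10 Frizzled receptor genes passed in edgeR, 0 passed in limma-voom and 1 in DESeq2, which called 952 of the 17743 genes. Of the 10, 5 were at an unadjusted p under 0.05, against 17.4% of all tested genes. Among the 5, Fzd7, Fzd5, Fzd10 and Fzd2 had log2 changes of 0.27, 0.23, 0.59 and 0.24 (edgeR adjusted p from 0.13 to 0.206). Among 5 tested antagonists of the other kind, which bind Wnt ligands rather than LRP, 1 fell and none rose. This was Sfrp4, at 101.9 to 164.3 CPM in wild type and 62.9 to 80.7 CPM in knockout (log2 change -0.97 ± 0.142 SE, edgeR adjusted p = 0.012).

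Of 11 genes known to act on Sost transcription, 1 rose and none fell. Hdac4, a histone deacetylase that represses MEF2 transcription factors, was at 20.3 to 23.0 CPM in wild type and 25.8 to 28.5 CPM in knockout (log2 change 0.32 ± 0.0707 SE, edgeR adjusted p = 0.0484). Its relative Hdac5 (0.23 ± 0.0757, adjusted p = 0.155) and the MEF2 genes Mef2c (0.28 ± 0.11, adjusted p = 0.224) and Mef2d (0.17 ± 0.0758, adjusted p = 0.275) did not pass. Mef2c was at 222.9 to 227.7 CPM in wild type, 281.8 to 311.6 in knockout replicates 1 to 3 and 204.2 in knockout replicate 4. It passed in 1 fit with a library left out (edgeR adjusted p = 0.0137), with log2 changes from 0.2 to 0.4 over left-out libraries. Pth1r, the parathyroid hormone receptor gene, had means of 332.3 and 333.7 CPM in the 2 genotypes.

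Many of these calls were lost when 1 library was left out, while the log2 changes stayed close to those above. For Dkk1, leaving out any single library other than wild-type replicate 2 gave adjusted p from 0.00924 to 0.0453. Without wild-type replicate 3 and knockout replicates 2 and 3, the libraries poor in muscle RNA, the log2 change of Dkk1 was 0.54 ± 0.119 (adjusted p = 0.254), with 8 genes called in all. The Axin2 call was lost without any 1 of the wild-type replicates or of knockout replicates 2 and 3 (adjusted p 0.0511 to 0.0719), with log2 changes from 0.55 to 0.75 over the left-out libraries. The Wnt10b call was lost without wild-type replicates 2, 3 or 4 or knockout replicate 3 (0.0529 to 0.0895), with log2 changes from 0.46 to 0.64. Hdac4 stayed called only without knockout replicate 4 (0.0234), with adjusted p up to 0.147 otherwise and log2 changes from 0.29 to 0.36. Sfrp4 stayed called whichever single library was left out (adjusted p up to 0.0494), with log2 changes from -1.10 to -0.88. With the mean log2 CPM of osteoblast markers as a covariate the adjusted p was 0.0645 for Axin2, 0.0619 for Wnt10b, 0.0759 for Hdac4 and 0.053 for Sfrp4, and in limma-voom it was 0.0516 for Axin2 and 0.0597 for Hdac4. For Hdac4 it was also above the threshold without a count filter (0.0638) and with the muscle covariate (0.0502). Without the 3 muscle-poor libraries none of these genes was called, with adjusted p of 0.423 for Axin2, 0.188 for Wnt10b, 0.444 for Hdac4 and 0.243 for Sfrp4.

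**Figure D4:**
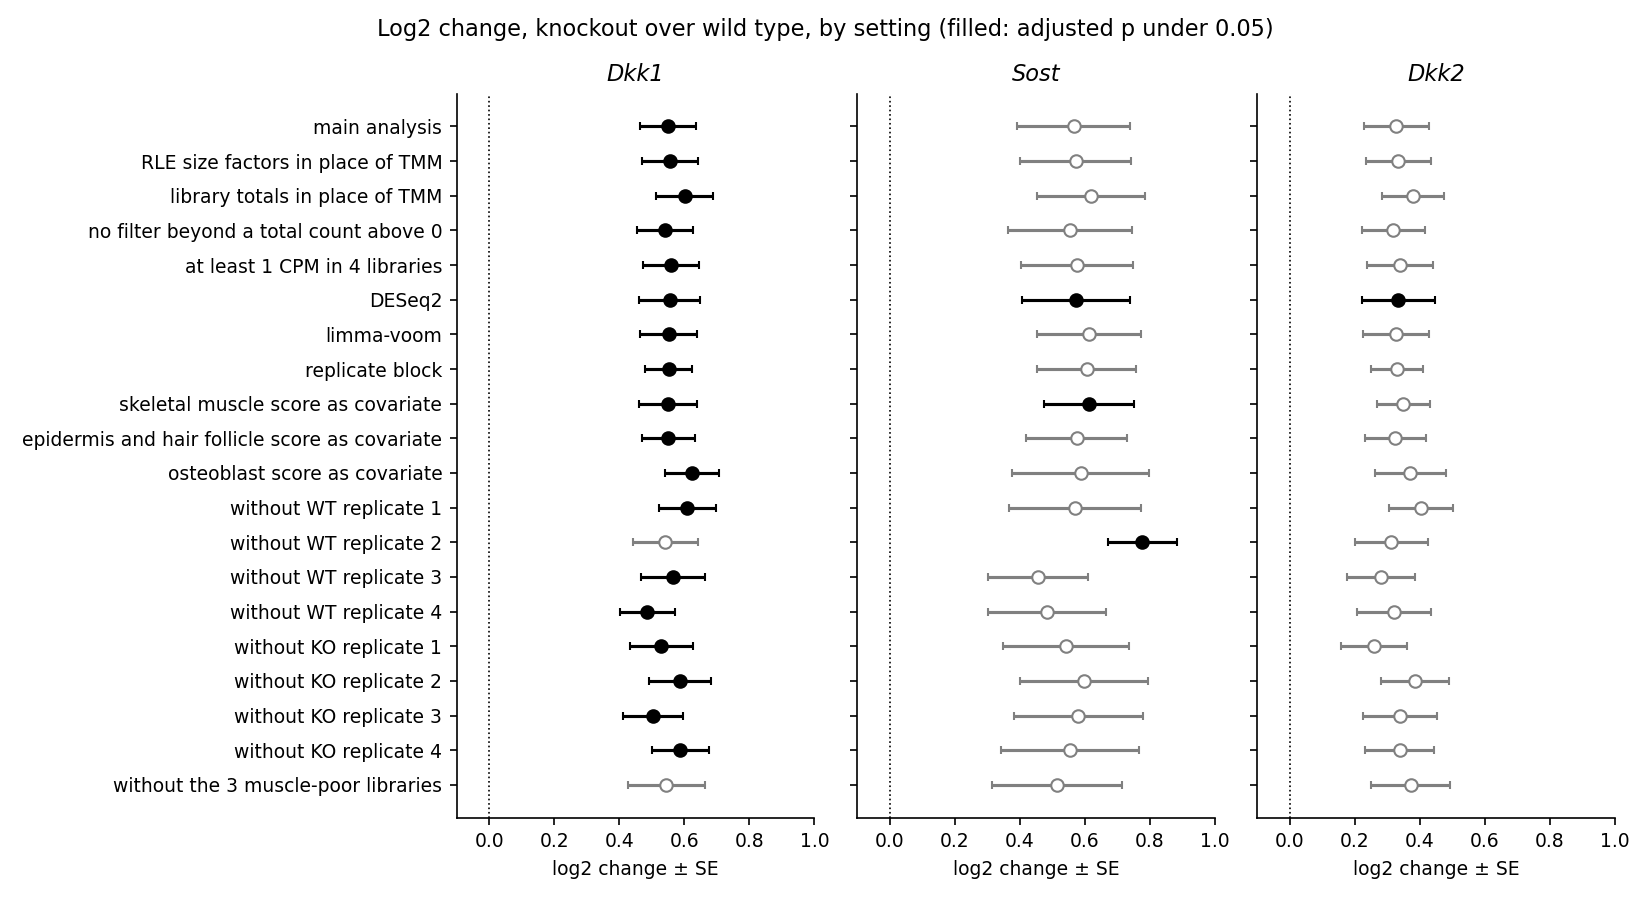
Log2 change ± SE of Dkk1, Sost and Dkk2 in the main analysis and under 19 other settings, filled where the adjusted p was under 0.05. Dkk1 stays between 0.49 and 0.62 throughout and is open without wild-type replicate 2 and without the 3 muscle-poor libraries; Sost ranges from 0.46 to 0.78.

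The libraries were checked against the labels and for other tissues. Totals ran from 35.4 M to 54.3 M counts, and over all tested genes 79 rose and 155 fell, or 113 and 99 when only the totals scaled the counts. Kcnj9, the targeted gene, held 0, 0, 1 and 4 counts in the wild-type libraries and 2, 5, 7 and 9 in those labelled knockout, so it was not lower in the latter (0.0257 ± 0.0381 against 0.138 ± 0.092 CPM, SD, n = 4 each; exact permutation p = 0.0571). At so few counts it does not check the labels, and knockout here means the libraries labelled so. All 12 osteoblast markers were tested. In edgeR 1 fell and none rose, against 0.874% of all tested genes called lower. An unadjusted p under 0.05 was reached by 6, against 17.4% of all tested genes. DESeq2, which called 952 genes in all, called 2 of the markers lower, and limma-voom called 0. The gene that fell was Bglap, which encodes osteocalcin (log2 change -0.48 ± 0.101 SE, edgeR adjusted p = 0.0383); its reads can be shared with Bglap2 (-0.33 ± 0.0855, adjusted p = 0.0862). The number called was 0 to 2 over left-out libraries. The mean log2 CPM of the 12 ran from 10.5 to 10.6 in wild type and from 10.3 to 10.6 in knockout. None of 10 osteocyte markers other than Sost passed in edgeR, and their median log2 change was 0.02. Of these markers, 2 had an unadjusted p under 0.05, where 17.4% of all tested genes did. DESeq2 called 1 of them lower and limma-voom called 0. In bulk tissue, fewer cells of a type and less RNA per cell cannot be told apart. Of 15 epidermis and hair follicle markers, 10 failed the count filter, Krt71 was at 0 in every library, and their summed level ran from 8.69 to 11.2 CPM in wild-type and from 8.85 to 14.2 CPM in knockout libraries. The mean log2 CPM of 15 muscle markers was -0.43, 1.41 and 2.9 in the muscle-poor libraries and 4.94 to 6.59 in the others. With this mean as a covariate the log2 change of Dkk1 was 0.55 (adjusted p = 0.0131), and with the osteoblast mean it was 0.62 (adjusted p = 0.0149). Of 8 osteoclast markers, edgeR called 0, limma-voom 0 and DESeq2, with its 952 genes called in all, 5. All 8 had a log2 change below 0. Before adjustment 7 had a p under 0.05, against 17.4% of all tested genes. Macrophage markers moved with genotype: 4 of 10 fell, where 0.874% of all tested genes were called lower. Their mean log2 CPM ran from 5.31 to 5.5 in wild type and from 4.64 to 4.98 in knockout. Of 9 suture and calvarial mesenchyme markers 2 rose, against 0.445% of all tested genes called higher. These were Gli1 (log2 change 0.47, edgeR adjusted p = 0.0231) and Axin2. The number called was 0 to 2 over left-out libraries. The median log2 change of the 9 was 0.05, and 3 of them were below 0. Their mean log2 CPM ran from 5.16 to 5.26 in wild type and from 5.27 to 5.54 in knockout, so the groups only just separated. The value of 5.54 was that of knockout replicate 4, and the other knockout libraries were at 5.27 to 5.31. For neither of these lists do the ranges of the genotypes overlap. The part of either list in the result for Dkk1 and the genotype therefore cannot be told apart. Of 7 tested meningeal fibroblast markers 1 rose, Zic1 (log2 change 0.49, edgeR adjusted p = 0.0328). Of 9 tested neuron and glia markers 1 fell, Mbp (-0.74, edgeR adjusted p = 0.0152). The mean log2 CPM of both lists overlapped between genotypes. In edgeR none of the cartilage, endothelial, pericyte and smooth muscle or erythroid markers was called.

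The genes whose log2 CPM followed each of the 6 tested genes most closely over the 8 libraries were listed among 13046 genes with a mean of at least 1 CPM. For Dkk1 they were Snhg12, Grip1 and Hbp1 (Pearson's r 0.97, 0.97 and 0.96; Spearman's rho 0.93, 0.9 and 0.86). For Sost they were Abtb1, Rmi2 and Ybey (r 0.95, 0.94 and 0.94). Dkk2 was followed by Magi1, Acss3 and Rcor2, and Dkk3 by Cant1, Mtus2 and Itgb5 (r from 0.95 to 0.98). Sostdc1 was followed by Dnase1l2, Atg4d and Klhdc1, and Kremen1 by Ints1, Pigb and Map3k14 (r from 0.95 to 0.97). None of these 18 genes was called between the genotypes, the smallest edgeR adjusted p being 0.0966 for Abtb1. Among the 6 genes themselves r was 0.83 for Dkk1 with Dkk2, 0.75 for Dkk1 with Sost and 0.73 for Dkk2 with Sost, and -0.47 for Dkk1 with Dkk3. These values describe 8 libraries that share the genotype difference, and the closest of many genes are close by selection.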

How the data were processed

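RNA was sequenced from calvaria of 4 wild-type and 4 Girk3 knockout mice, and titles gave the groups. The authors deposited 1 table of raw counts, by Ensembl gene ID and library, that was not normalized. The submitters' processing notes list bcl2fastq 2.17, STAR 2.5.2b and featureCounts of Subread 1.5.2, with build mm10; annotation release and strand setting were not given in the sources used here. Symbols were found for 48970 IDs, and positions and exon lengths came from GENCODE release 21 (GRCm38/mm10). The filterByExpr filter of edgeR 4.0.16 (minimum count 10, minimum total 15) left 17743 genes with 99.9% of the counts. CPM of tested genes used totals times TMM factors (0.972 to 1.04); for log2 CPM the prior count was 2. The genotypes were compared by edgeR's quasi-likelihood test, two-sided, at a Benjamini-Hochberg adjusted p under 0.05. For Kremen2, which failed the filter, an exact permutation test was used. On counts simulated with the means and spread of these libraries the test found 31 of the 67 genes given a 1.5-fold change. It found 47 of the 67 given 2-fold and 59 of the 66 given 4-fold, and made 10 false calls over 17474 genes. Each simulated gene was drawn independently, without the differences in muscle RNA between these libraries, so the numbers hold for that simpler setting only.

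The genes and lists were chosen with earlier results of these data known. The text names all 7 genes, the LRP co-receptors, the called genes of each pathway list, up to 4 further genes per list at an unadjusted p under 0.05, and the 3 closest genes per member. Pth1r, Krt71, Kcnj9, Bglap, Bglap2, Gli1, Zic1, Mbp and, among the closing observations, Dkk4 and Dkkl1 were named in addition, after their values were seen. Alternatives were other normalizations and filters, DESeq2 1.42.0, limma-voom (limma 3.58.1), tissue scores as covariates, a block on the replicate number, and the removal of libraries. The floor of 3 counts covers counting error alone, as reads that carry no molecular identifier need not be independent molecules. None of the 28 pairs of libraries agreed within sampling noise: the squared difference averaged at least 10.2 times the counting variance. Figures were drawn with matplotlib 3.10.9.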

Additional observations from a re-analysis of the deposited data

Results flagged for a closer look

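For 1 of the 14 sets of 4 libraries, those of 7 genes in 2 genotypes, a single library stood well away from the rest; by chance about 1 set in 20 would. Wild-type replicate 4 held 135.7 CPM of Kremen1, while the other wild-type libraries held 109.6 to 110.4 CPM. Without that library the log2 change of Kremen1 was 0.2 (edgeR adjusted p = 0.206).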

How the results depend on the processing

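The log2 changes of Dkk1, Dkk2, Sost, Sostdc1 and Kremen1 stayed above 0, and that of Dkk3 below 0, under all 19 settings. The number of the 7 genes called was 1 in the main analysis, 3 in DESeq2 (Dkk1, Sost and Dkk2), 2 with the muscle covariate (Dkk1 and Sost) and 0 without the 3 muscle-poor libraries, where Dkk1 was at 0.54; it was 1 without any single library, Sost taking the place of Dkk1 without wild-type replicate 2. The log2 change of Dkk1 ran from 0.49 to 0.61 over the left-out libraries. Over all genes 234 were called, against 355 with no count filter, 952 in DESeq2, 621 with the epidermis covariate, 105 with the osteoblast covariate, 8 without the 3 muscle-poor libraries and 57 (without knockout replicate 2) to 608 (without knockout replicate 4) over left-out libraries. The cause was not tested, and the fits with libraries left out also had fewer samples. The log2 change of Lrp4 changed sign, to 0.00898 with library totals, 0.0121 with the osteoblast covariate and 0.00636 without the muscle-poor libraries, and ran from -0.11 to 0.0201 over left-out libraries. Same-numbered libraries of the 2 genotypes did not deviate together (correlations 0.26, -0.18, 0.34 and -0.00498), and 1 of 8 libraries was closest to its own number. With the replicate block 126 genes were called, 96 of them shared with the 234; Dkk1 stayed called (adjusted p = 0.0214) and Hdac4 did not (0.132). Kremen2 was limited by depth.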

Other observations

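Of the DKK relatives outside the 7 genes, Dkk4 was near the limit of detection apart from 1 library. Dkkl1 was low but passed the count filter (edgeR adjusted p = 0.684). Dkk4 held 11 counts in knockout replicate 4 and at most 2 in any other library, and Dkkl1 held 40 counts there and 7 to 16 in the others. Knockout replicate 4 had the lowest total and counts in 28520 genes, against 24545 to 25729 in the other libraries. Without it the log2 change of Dkk1 was 0.59 (edgeR adjusted p = 0.0112).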
